A study of Mus musculus with 24 samples.

Results

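Camp, Ngp, Ltf, Mmp8 and Pglyrp1 are genes for proteins that neutrophils store in their specific granules. They were followed by symbol through RNA sequencing libraries of mouse microglia and astrocytes, and all 5 were found, each under 1 Ensembl identifier, among the 53700 identifiers of the microglia tables and the 55487 of the astrocyte tables. The libraries came from 8 groups of 3. Per the labels, the groups were LPS-injected Serpine2-/- adults, LPS-injected control littermates, saline-injected Serpine2-/- adults and saline-injected control littermates, each sampled for microglia and for astrocytes. Controls kept at least 1 working Serpine2 allele, so wild-type and heterozygous mice could be among them. LPS is lipopolysaccharide, a component of the outer membrane of Gram-negative bacteria that sets off innate immune responses. The dose, route and time of the injection and the way the Serpine2 allele was made are not given in the sources used here, nor is whether a library is 1 mouse, so the tests measure the spread between these libraries. All mice were perfused with buffer before dissection. Microglia came from whole brain over Percoll and astrocytes from papain-digested cortex, and both were then bound to antibody-coated dishes.

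Neutrophils are made in bone marrow, and they fill their granules in sequence. Primary (azurophil) granules with myeloperoxidase and serine proteases come first, specific granules follow in later precursors, and gelatinase granules come last. The transcripts of the specific granule proteins are high in those precursors and are largely switched off before the mature cell leaves the marrow, while transcripts such as Cxcr2 mark the mature cell. Resting microglia and astrocytes are not known as main sources of these proteins.

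Camp encodes the cathelicidin antimicrobial peptide, Ngp the cystatin-related neutrophilic granule protein, and Ltf the iron-binding protein lactoferrin. Mmp8 encodes the neutrophil collagenase, a metalloproteinase, and Pglyrp1 a peptidoglycan recognition protein that binds the bacterial cell wall. On GRCm38 with the GENCODE M21 annotation, Camp (ENSMUSG00000038357) lies on chromosome 9 at 109847379 to 109849617 on the minus strand. Ngp (ENSMUSG00000032484) follows on chromosome 9 at 110419747 to 110423012 and Ltf (ENSMUSG00000032496) at 111019271 to 111042767, both on the plus strand. Mmp8 (ENSMUSG00000005800) is far from them on chromosome 9, at 7558456 to 7568485, and Pglyrp1 (ENSMUSG00000030413) is on chromosome 7 at 18871331 to 18890459, both on the plus strand. The annotation places 0 other genes over any of the 5, so antisense or overlapping genes share none of their reads in that annotation.

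Camp, Ngp and Ltf were the members whose levels changed together and passed a test, and their promoters are shown for that reason. The sequences are RefSeq promoters on GRCm38.p6, from 250 bases before to 50 bases after the RefSeq gene start. They read 5′ to 3′ on the gene's strand, with capitals for matches to 4 short motifs searched on both strands. RefSeq starts differ from the GENCODE coordinates above, so parts of these windows can lie inside the gene as GENCODE annotates it. The Pglyrp1 window, chr7:18884440-18884739, lies wholly inside it. The motifs were TTNNGNAA for C/EBP factors, GAGGAA for PU.1, TGTGGT for Runx factors and TATAAA for the TATA box, and no matches overlapped in the sequences shown. C/EBP factors, PU.1 and Runx factors direct granulocyte gene programmes. The windows are chr9:109849407-109849706 on the minus strand for Camp, and chr9:110419558-110419857 for Ngp and chr9:111019042-111019341 for Ltf on the plus strand.
Camp: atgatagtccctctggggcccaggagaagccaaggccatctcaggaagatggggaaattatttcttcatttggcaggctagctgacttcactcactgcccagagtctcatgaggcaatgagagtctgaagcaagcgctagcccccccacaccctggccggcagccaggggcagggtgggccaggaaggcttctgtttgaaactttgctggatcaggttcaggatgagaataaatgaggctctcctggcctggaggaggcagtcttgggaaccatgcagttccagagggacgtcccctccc
Ngp: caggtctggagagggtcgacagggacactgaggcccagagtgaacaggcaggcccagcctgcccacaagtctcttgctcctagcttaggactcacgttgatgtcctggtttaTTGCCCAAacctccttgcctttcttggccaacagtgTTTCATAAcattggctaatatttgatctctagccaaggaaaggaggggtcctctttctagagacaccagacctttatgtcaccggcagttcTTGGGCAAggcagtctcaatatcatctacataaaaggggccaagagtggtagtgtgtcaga
Ltf: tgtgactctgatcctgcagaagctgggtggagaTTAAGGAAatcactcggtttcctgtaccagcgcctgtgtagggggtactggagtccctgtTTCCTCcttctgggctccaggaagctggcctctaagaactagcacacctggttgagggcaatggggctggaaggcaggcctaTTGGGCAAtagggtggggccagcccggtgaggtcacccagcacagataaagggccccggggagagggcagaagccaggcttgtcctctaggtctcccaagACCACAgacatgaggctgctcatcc
Ngp held 3 C/EBP matches, 138, 102 and 11 bases before its RefSeq start. Ltf held C/EBP matches 217 and 75 bases before its RefSeq start, a PU.1 match at 157 bases before it and a Runx match 25 bases after it. Camp held 0 matches to any of the 4 motifs, which says only that these letters are not in this window. Among the members not printed, Mmp8 held 2 C/EBP matches, 1 PU.1 match and 1 TATA box, and Pglyrp1 held 2 PU.1 matches. The C/EBP motif was present in 3 of the 5 promoters and in 40.7% of all 32851 RefSeq promoters of the same length. The PU.1 motif was in 3 of the 5 against 28.3% of all, the Runx motif in 1 of the 5 against 16.8%, and the TATA box in 1 of the 5 against 13.6%. These matches are a description of sequence, not of binding.

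Read counts assigned to genes ran from 4506142 to 13621776 per microglia library and from 10944765 to 25135252 per astrocyte library, 12 libraries each. Levels are given as CPM, a gene's counts per 1000000 reads of tested genes, after TMM scaling, which corrects libraries for differences in composition. Serpine2 checked the genotype labels: it was at 16.9 to 20.7 CPM in the 6 knockout and 46.6 to 96.6 CPM in the 6 control microglia libraries, and at 16.4 to 22.3 against 78.3 to 168.9 CPM in the astrocyte libraries. Xist and the Y-linked Ddx3y matched the labelled sex in 23 of 24 libraries, the exception being LPS control microglia 1, labelled female with 73 Xist and 251 Ddx3y counts. By these counts library 2 was the only female of each saline microglia group. LPS knockout microglia 1 and 3 were female and 2 male, while LPS control microglia 1 and 2 were male and 3 female. In astrocytes the only female was library 1 in saline controls and library 3 in each other group. Summed microglia markers (10 of 10 detected in every group) were at 902.3 to 3875 CPM in microglia and at 79.2 to 212.8 CPM in astrocyte libraries, where 8 astrocyte markers summed to 14540 to 20670 CPM. Neuronal markers summed to 1908 to 2893 CPM in microglia libraries. In astrocytes, the LPS libraries numbered 3 stood apart, with Lcn2, an LPS-induced gene, at 368.8 CPM in knockout 3 against 822.1 and 1122 CPM in the other LPS knockouts, and at 27.0 CPM in control 3 against 1062 and 1036 CPM in the other LPS controls.

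All 5 granule genes passed the filter on low counts in microglia and were highest there, by group mean, in saline-injected knockout mice. Per kilobase of annotated exon, mean levels in saline knockout microglia were 248.3 CPM per kb for Ngp, 156.2 for Camp, 45.9 for Ltf, 20.0 for Pglyrp1 and 17.2 for Mmp8. In saline control microglia the order was the same, with 112.4 CPM per kb for Ngp, 62.2 for Camp, 20.1 for Ltf, 10.8 for Pglyrp1 and 8.75 for Mmp8. Ngp and Camp transcripts were thus the most abundant of the set by this length, the union of all annotated exons of a gene. Pglyrp1 and Mmp8, the lowest pair by it, differed by less than their spread in control microglia (SD 3.51 and 1.81, n = 3). This order rests on that choice of length, since the length of the transcripts present was not measured. Fewer neutrophil-lineage cells in a preparation and less RNA per cell cannot be told apart in these bulk libraries.

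**Figure D1:**
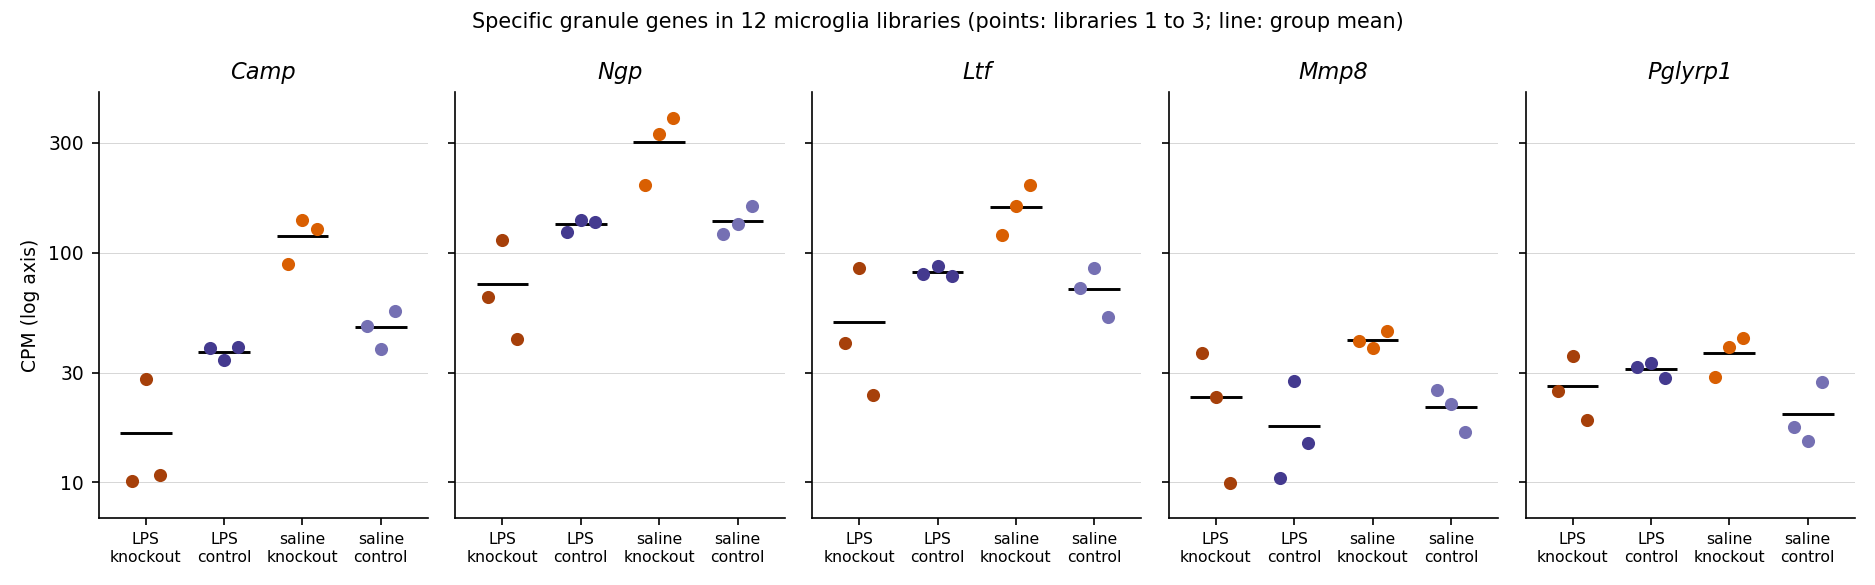
CPM of Camp, Ngp, Ltf, Mmp8 and Pglyrp1 (log axis) in each microglia library, by injection and genotype. Points are libraries 1 to 3 of a group and lines are group means. Saline knockout libraries stand above all saline controls for every gene, and LPS knockout libraries are the lowest for Camp and Ngp.

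The first question was whether loss of Serpine2 changed these genes in microglia of mice that had received only saline. Camp, the antimicrobial peptide gene, was at 89.1, 139.0 and 127.2 CPM in saline knockout microglia, against 48.0, 38.0 and 55.5 CPM in saline control microglia. The groups did not overlap, and the means were 118.4 ± 26.1 and 47.2 ± 8.80 CPM (SD, n = 3 each). Ngp was at 197.2, 329.2 and 383.7 CPM in saline knockouts, against 120.4, 133.0 and 158.7 CPM in saline controls. Every knockout library was again above every control, with knockout 1 the lowest of its group for both genes. Ltf, which withholds iron from bacteria, was at 119.4, 159.7 and 196.2 CPM in saline knockouts, against 69.8, 85.4 and 52.5 CPM in saline controls. For the collagenase gene Mmp8 the values were 41.3, 38.3 and 45.4 CPM in saline knockouts, against 25.2, 21.9 and 16.5 CPM in saline controls. Pglyrp1 came closest to overlap, with 28.8, 38.6 and 42.6 CPM in saline knockouts, against 17.5, 15.1 and 27.2 CPM in saline controls. The 3 knockouts were above the 3 controls for 5 of 5 genes, where this held for 2.53% of the 22230 genes tested.

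Fitted with edgeR's quasi-likelihood model over all 22230 genes, the saline difference was 1.33 on the log2 scale for Camp (SE 0.32, 2.51-fold), 1.20 for Ltf (SE 0.35) and 1.14 for Ngp (SE 0.31). Mmp8 differed by 0.98 (SE 0.41) and Pglyrp1 by 0.87 (SE 0.28), and the 5 together had a median of 1.14, against −0.05 over all genes tested. The threshold for a call was a p under 0.05 after Benjamini-Hochberg adjustment. None of the 5 was called in saline, with an edgeR adjusted p of 1.00 for each. In that comparison edgeR called 0% of all genes, so Serpine2 itself was not called, and DESeq2 called 0 of the 5 and 1 gene in all. At an unadjusted p under 0.05 edgeR gave 5 of 5, from 0.000934 for Camp to 0.0290 for Mmp8, where 1.58% of all genes passed. The call depended on the filter: with genes of any count kept, edgeR called Camp, Ltf and Ngp with adjusted p of 0.000260, 0.00114 and 0.00116.

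Markers of mature neutrophils had differences of like size in the same libraries, also without a call. The 14 markers of the mature cell, all of them detected in each group, summed to 995.4 to 1867 CPM in saline knockout and 501.6 to 656.0 CPM in saline control microglia. Of the 14, 13 had positive fold changes, and 5 had an unadjusted p under 0.05 in edgeR, where 1.58% of all genes did. Neither edgeR nor DESeq2 called any of these markers (0 of 14). Their median was 0.95, led by S100a8, a calprotectin subunit, at 1.45 (SE 0.33) and the chemokine receptor gene Cxcr2 at 1.38 (SE 0.52), and at the low end were Csf3r at −0.10 and Mxd1 at 0.17. The part of neutrophil number in the saline difference of the granule genes was not tested. The ratio of the 5 granule genes' counts to the 14 markers' counts was −1.07, −0.54 and −1.23 on the log2 scale in saline knockouts, against −1.07, −1.16 and −0.69 in saline controls. Those groups overlap, and their means of −0.94 ± 0.36 and −0.97 ± 0.25 (SD, n = 3 each) differed by less than the spread between libraries.

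The next question was what LPS did in each genotype. In knockout mice, Camp, Ngp and Ltf fell. Camp was at 10.2, 28.2 and 10.7 CPM in LPS knockout microglia, against 89.1, 139.0 and 127.2 CPM in saline knockout microglia. Even the highest LPS library, knockout 2, was far under the lowest saline library. Ngp was at 64.1, 113.5 and 42.0 CPM in LPS knockouts, against 197.2, 329.2 and 383.7 CPM in saline knockouts, again with no overlap and with LPS knockout 2 on top. Ltf was at 40.2, 85.7 and 24.1 CPM in LPS knockouts, against 119.4, 159.7 and 196.2 CPM in saline knockouts. For Ltf as for Ngp the libraries ran LPS knockout 2 above 1 above 3, while for Camp knockout 2 stood above 3 and 1.

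The edgeR fold change of LPS over saline in knockouts was −2.89 on the log2 scale for Camp (SE 0.35, adjusted p 0.000644), which is 7.42-fold lower. For Ngp it was −2.06 (SE 0.32, adjusted p 0.00359) and for Ltf −1.68 (SE 0.36, adjusted p 0.0322). Thus 3 of the 5 were called lower, where edgeR called 1.14% of all genes in either direction and 0.13% lower. DESeq2 called the same number of members, 3, and 515 genes in all. Ltf lost its call with sex as a covariate (adjusted p 0.0570), in a fit of only the knockout groups (0.0529) and without LPS knockout 1 (0.119), LPS knockout 3 (0.0995), saline knockout 2 (0.0960) or saline knockout 3 (0.139), while Camp and Ngp stayed called, with the highest adjusted p at 0.00373 and 0.0169 over all alternatives. Mmp8 was at 36.7, 23.6 and 9.91 CPM in LPS knockouts, against 41.3, 38.3 and 45.4 CPM in saline knockouts. Its groups did not overlap, but its fold change of −0.84 (SE 0.40) was not called, at an edgeR adjusted p of 0.678. Pglyrp1 was at 24.9, 35.4 and 18.7 CPM in LPS knockouts, against 28.8, 38.6 and 42.6 CPM in saline knockouts, with overlap and a fold change of −0.49 (SE 0.27, adjusted p 0.792). All LPS libraries were below all saline libraries for 4 of the 5, and for 5.56% of all genes tested.

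In control microglia none of the 5 genes was called for LPS against saline. Camp was at 38.2, 34.0 and 38.8 CPM in LPS controls, against 48.0, 38.0 and 55.5 CPM in saline controls, and the groups overlapped. Ngp was at 123.3, 138.2 and 136.4 CPM in LPS controls, against 120.4, 133.0 and 158.7 CPM in saline controls, with overlap. The fitted fold changes were −0.35 for Camp (SE 0.32, 95% interval −1.03 to 0.33) and −0.05 for Ngp (SE 0.30, interval −0.70 to 0.60), and the sign of the Ngp value changed with the processing. Ltf was at 80.9, 87.4 and 79.1 CPM in LPS controls, against 69.8, 85.4 and 52.5 CPM in saline controls (0.25, SE 0.35). Mmp8 was at 10.4, 27.5 and 14.8 CPM in LPS controls, against 25.2, 21.9 and 16.5 CPM in saline controls (−0.26, SE 0.40). Pglyrp1 alone had all LPS controls above all saline controls, at 31.7, 32.98 and 28.4 CPM against 17.5, 15.1 and 27.2 CPM, with a fold change of 0.63 (SE 0.27, edgeR adjusted p 0.645). Neither edgeR nor DESeq2 called any of the 5, and edgeR called 0.576% of all genes. At an unadjusted p under 0.05 there was 1 of the 5, where 7.28% of all genes passed. Without LPS control 1, whose sex label was not borne out, the values were −0.34 for Camp, 0.036 for Ngp, 0.29 for Ltf, 0.035 for Mmp8 and 0.66 for Pglyrp1, with none called.

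**Figure D2:**
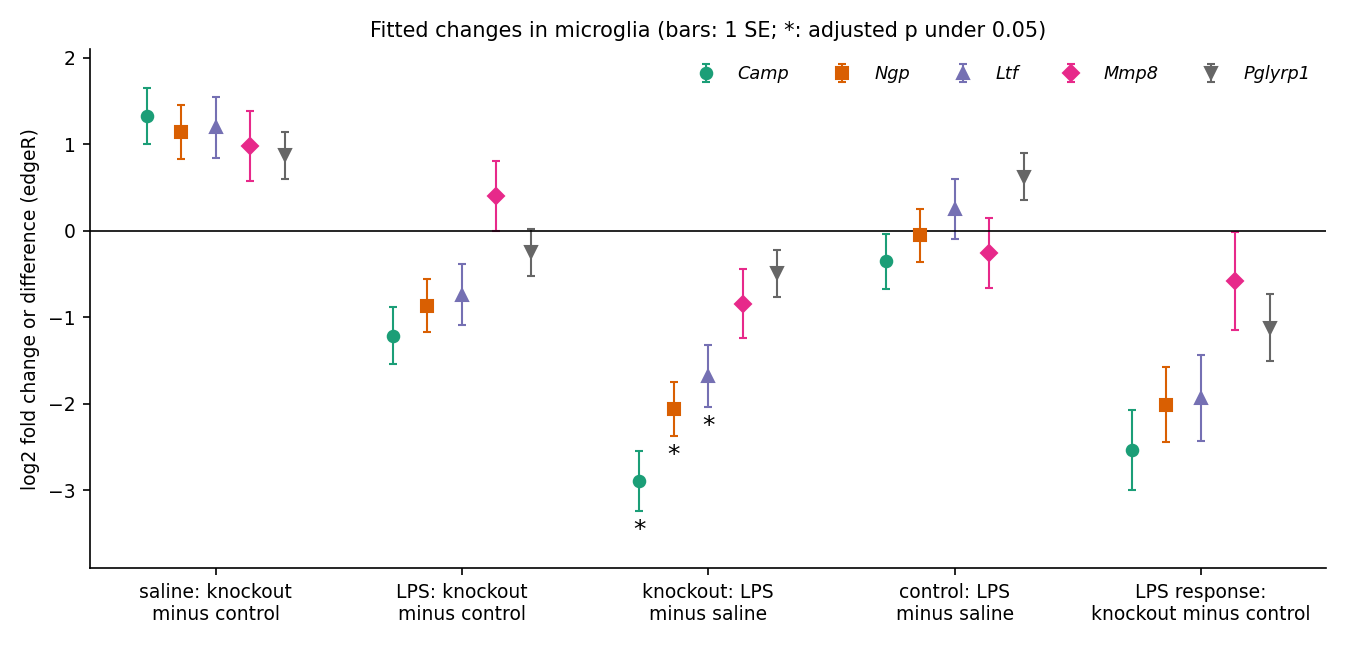
Fitted log2 fold changes of the 5 genes in microglia, with bars of 1 SE, for knockout against control in each injection, for LPS against saline within knockouts and within controls, and for the genotypes' difference in that response. Asterisks mark an edgeR adjusted p under 0.05, held by Camp, Ngp and Ltf for LPS against saline in knockouts.

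After LPS, the knockout values lay below the control values for Camp and Ngp, the other way from saline, without passing the test. The LPS values above put Camp at 16.4 ± 10.3 CPM in LPS knockouts and 37.0 ± 2.6 CPM in LPS controls (SD, n = 3 each). Every knockout library was below every control. Ngp averaged 73.2 ± 36.6 CPM in LPS knockouts and 132.6 ± 8.12 CPM in LPS controls, also without overlap. The fitted differences were −1.21 for Camp (SE 0.33), −0.86 for Ngp (SE 0.31) and −0.74 for Ltf (SE 0.35). Ltf overlapped through LPS knockout 2, at 85.7 CPM against 79.1 to 87.4 CPM in LPS controls. Pglyrp1 differed by −0.25 (SE 0.27) and Mmp8 by 0.40 (SE 0.40), and the Mmp8 value was −0.11 when LPS knockout 1 was left out. All knockouts were below all controls for 2 of the 5 and for 3.22% of all genes. No member was called by edgeR (adjusted p 1.00 each) or DESeq2, where edgeR called 0% of all genes. Camp and Ngp passed an unadjusted p under 0.05 (0.00240 and 0.0133), as did 1.51% of all genes, and with no filter on low counts edgeR called Camp (adjusted p 0.00419). Knockout 2 was the highest LPS knockout library for 4 of the 5 genes, and without it the differences were −1.82 for Camp (edgeR adjusted p 0.179), −1.32 for Ngp and −1.36 for Ltf. Knockout 2 was also the only male LPS knockout by Xist and Ddx3y, so leaving it out changed the sex balance with the controls as well. With the labelled sex as a covariate, edgeR called 0 genes of all in this comparison, as it did without the covariate. That count therefore cannot show whether sex had a part, and the label of LPS control 1 was not borne out. Without LPS knockout 3 the differences were −0.98 for Camp, −0.59 for Ngp and −0.40 for Ltf, so their size depended on single knockout libraries. Without LPS control 1 the differences were −1.19 for Camp, −0.92 for Ngp, −0.75 for Ltf, −0.23 for Pglyrp1 and 0.13 for Mmp8.

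The test of the difference itself, knockout minus control in the response to LPS, gave −2.54 for Camp (SE 0.46), −2.01 for Ngp (SE 0.43) and −1.93 for Ltf (SE 0.50). Pglyrp1 had −1.12 (SE 0.39) and Mmp8 −0.58 (SE 0.57), and the median over all genes was 0.06. In edgeR 0 of the 5 and 0% of all genes were called, while 4 of the 5 and 1.13% of all genes had an unadjusted p under 0.05. DESeq2 called 1 gene in all, Camp, at an adjusted p of 0.00212. With no filter on low counts edgeR called Camp (1.19e-08), Ngp (4.60e-06) and Ltf (3.98e-05), and without LPS knockout 2 it called Camp (−3.15, adjusted p 0.00688). Without LPS control 1 the values were −2.54 for Camp, −2.09 for Ngp and −1.97 for Ltf. These comparisons share groups, so they are not independent of each other. By mean, Camp and Ngp ran in the order saline knockout, saline control, LPS control, LPS knockout, and in neither gene did edgeR call a difference between neighbours in that order. Ltf ran saline knockout, LPS control, saline control, LPS knockout, Pglyrp1 ran saline knockout, LPS control, LPS knockout, saline control, and Mmp8 ran saline knockout, LPS knockout, saline control, LPS control. Below the saline knockouts, Mmp8 means lay between 17.6 and 23.4 CPM with SDs of 4.39 to 13.4 CPM, so those 3 groups differed by less than their spread.

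Relative to mature neutrophil markers, the granule genes were lowest in LPS knockouts. The 14 mature markers summed to 405.5 to 1104 CPM in LPS knockout and 461.5 to 798.2 CPM in LPS control microglia, overlapping ranges, against 995.4 to 1867 CPM in saline knockouts. The log2 ratio of the 5 granule genes to these markers was −2.65, −1.45 and −1.94 in LPS knockouts, against −0.70, −1.32 and −1.18 in LPS controls and −1.07, −0.54 and −1.23 in saline knockouts. All 3 LPS knockout libraries were below all 9 other microglia libraries. For Camp against S100a8 alone, LPS knockouts had 30.3, 88.1 and 78.6 Camp counts per 1000 S100a8 counts, against 216.0, 101.0 and 152.0 in LPS controls and 251.8, 299.3 and 178.3 in saline knockouts. LPS knockouts did not overlap with these groups on this measure either, and no test is given for a ratio over chosen genes. S100a8 itself followed the 5 genes. Its log2 CPM had a Pearson r of 0.80 with their mean over the microglia libraries (0.82 within groups), against −0.001 for Cxcr2 (0.57 within groups). The mature list was split on this measure. Over the 14 markers r ran from 0.80 for Ly6g (0.20 within groups) to −0.45 for Fpr1 (0.06 within groups). Relative to primary granule genes the picture differed: these had 43.4, 95.6 and 68.9 counts per 1000 counts of the 5 genes in LPS knockouts, against 115.8, 74.5 and 94.98 in LPS controls, which overlap. Their means were 69.3 ± 26.1 in LPS knockouts and 62.7 ± 6.39 in saline knockouts (SD, n = 3 each), a difference below the spread.

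**Figure D3:**
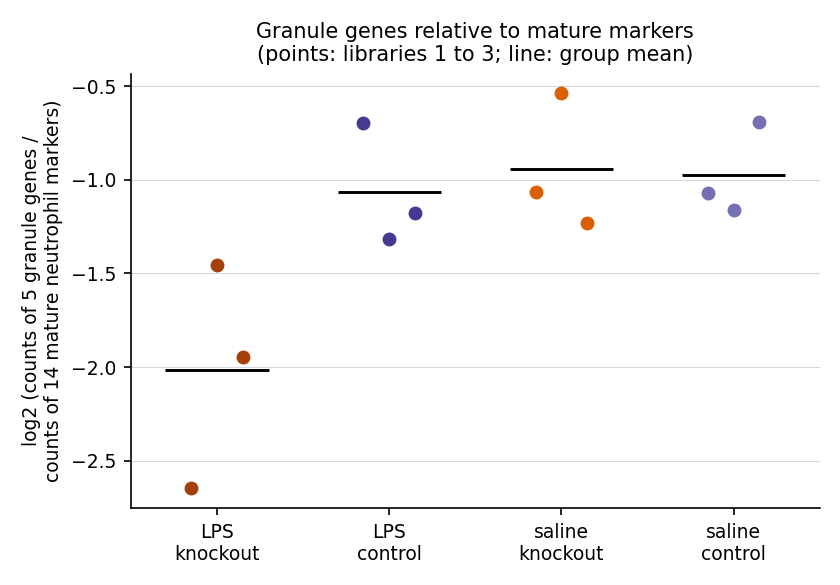
Log2 ratio of the summed counts of the 5 granule genes to those of 14 mature neutrophil markers in each microglia library. Points are libraries 1 to 3 and lines are group means. The LPS knockout libraries lie between −2.65 and −1.45, below the 9 others.

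Within the mature list the response of knockouts to LPS was split. Ly6g, the neutrophil surface marker, was called lower in LPS than in saline knockouts at −2.85 (SE 0.39, edgeR adjusted p 0.00161), and the formyl peptide receptor gene Fpr1 was called higher at 2.94 (SE 0.45, adjusted p 0.00343). DESeq2 called 5 of the 14. Over all genes in this comparison DESeq2 called 515, and edgeR called 1.14%. Next at the upper end was Stfa2l1 at 2.48 (SE 0.61) and next at the lower end Retnlg at −1.39 (SE 0.44), neither called by edgeR. Of the 14, 8 had positive and 6 negative values. The median of the 14 was 0.11, against −0.02 over all genes. Of the 6 genes listed here as primary granule genes, 5 were tested. DESeq2 called 3 of them and edgeR 1, Fcnb, which encodes ficolin-B, at −2.60 (SE 0.49, adjusted p 0.0135). The others had negative values without an edgeR call, from Elane, neutrophil elastase, at −2.49 (SE 0.67) and Mpo, myeloperoxidase, at −1.68 (SE 0.43) to Prtn3 at −0.96 (SE 0.55) and Ctsg, cathepsin G, at −0.93 (SE 0.45), and their median of −1.68 equalled that of the specific granule genes to 2 decimals. Of 11 other specific and gelatinase granule genes, 10 were tested. DESeq2 called 2 of them and edgeR 1, Hp, haptoglobin, higher at 1.35 (SE 0.26, adjusted p 0.0167). That list ran from Cybb, an NADPH oxidase subunit, at 1.44 (SE 0.40) to Cd177 at −0.49 (SE 0.41) and Mmp25 at −0.92 (SE 0.42), with a median of 0.12. None of 5 tested granulocyte regulators was called in edgeR, and DESeq2 called 1. An unadjusted p under 0.05 was held by 3 of them, where 7.61% of all genes passed, with Cebpb at 1.58 (SE 0.54) and Spi1, which encodes PU.1, at 0.48 (SE 0.38) at the upper end. Cebpa at −1.35 (SE 0.40) and Cebpe at −1.11 (SE 0.52), the factor needed to make specific granules, were at the lower end. In controls, LPS against saline, edgeR called Fpr1 at 3.05 (SE 0.49, adjusted p 0.00603), Lcn2 at 1.55 (SE 0.28, adjusted p 0.0128) and Hp at 1.52 (SE 0.26, adjusted p 0.0105) among these lists, all higher. DESeq2 called 3 mature markers and 4 of the other granule genes there. Over all genes DESeq2 called 285 in controls, and edgeR called 0.576%.

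In saline, knockout against control, the granule lists had positive medians without a call, and the regulators lay near 0. The 5 tested primary granule genes had a median of 1.54 and 5 of 5 positive values, from Ctsg at 1.55 (SE 0.48) and Elane at 1.55 (SE 0.61) to Prtn3 at 1.36 (SE 0.56) and Fcnb at 0.91 (SE 0.43). The other specific and gelatinase granule genes had a median of 1.00, with 10 of 10 positive, from the protease inhibitor gene Slpi at 1.5 (SE 0.37) and Lcn2 at 1.18 (SE 0.28) to Itgam at 0.17 (SE 0.35) and Olfm4 at 0.10 (SE 0.59). The regulators had a median of 0.15, from Cebpe at 0.59 (SE 0.50) and Cebpd at 0.22 to Spi1 at 0.05 and Cebpa at 0.02. No gene of these lists was called in saline by edgeR or DESeq2. An unadjusted p under 0.05 in edgeR was held by 4 of 5 primary granule genes, 6 of 10 other granule genes and 0 of 5 regulators. Over all genes the share was 1.58%. After LPS, knockout against control, the primary granule genes had a median of −1.03 with 5 of 5 negative. The medians were 0.27 for the other specific and gelatinase genes and 0.48 for the mature markers, with 0 called by either tool. An unadjusted p under 0.05 in edgeR was held by 4 of 5, 1 of 10 and 5 of 14 tested genes of these lists, where 1.51% of all genes passed.

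**Figure D4:**
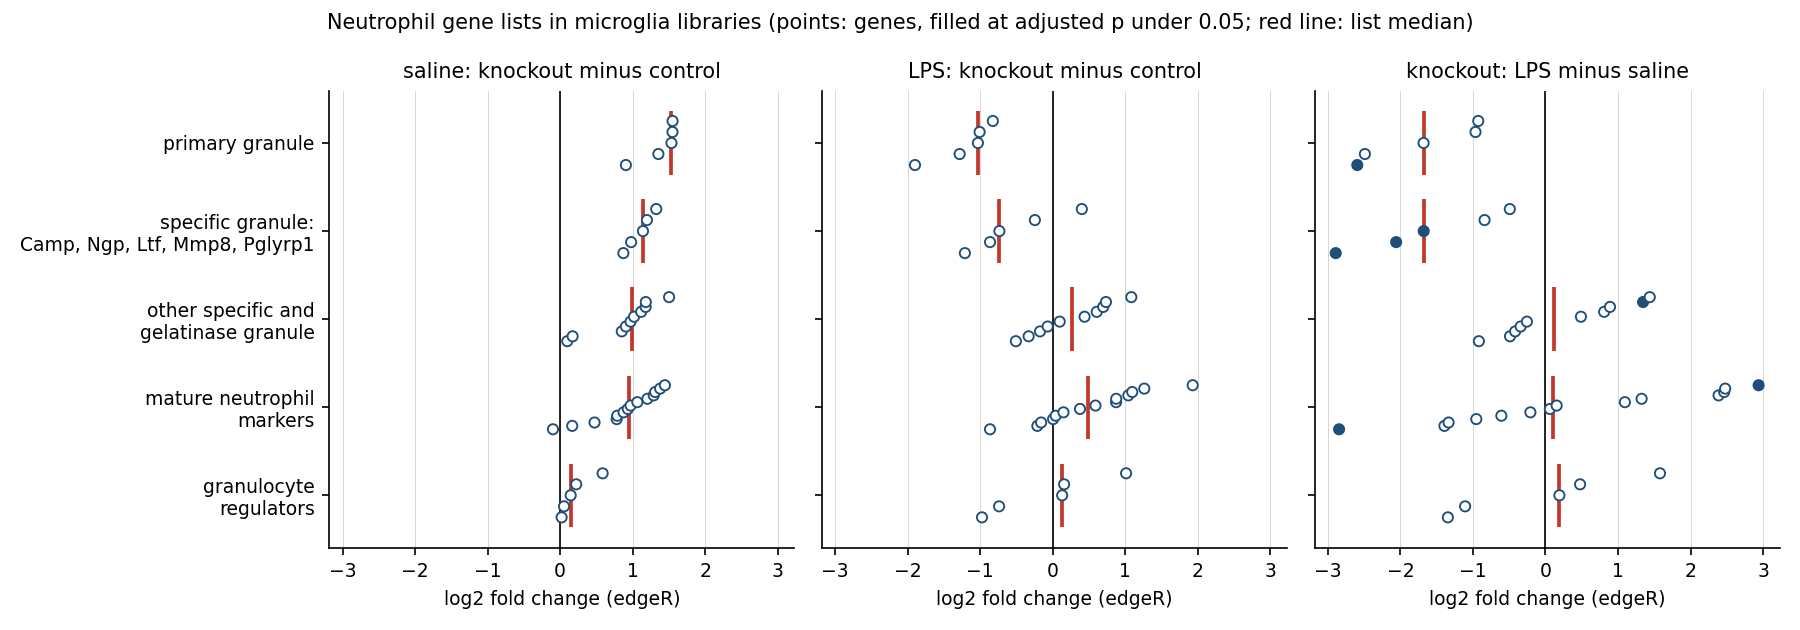
Log2 fold changes of neutrophil gene lists in microglia for knockout against control in saline and in LPS and for LPS against saline in knockouts. Points are genes, filled where the edgeR adjusted p is under 0.05, and red lines are list medians. In saline nearly all values are above 0. In the LPS panels the medians of the primary and specific granule lists lie left of the median of the mature markers, while single genes of the lists overlap.

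Among 6 genes for partners of the granule proteins, edgeR called 0 in saline, knockout against control, and 0 for LPS against saline in knockouts. Trem1, whose product binds Pglyrp1, was at 1.03 (SE 0.44) in saline knockout against control and 0.68 (SE 0.39) for LPS against saline in knockouts. Fpr2, a formyl peptide receptor that cathelicidin engages, was at 1.43 (SE 0.48) and 1.62 (SE 0.41, edgeR adjusted p 0.0848). Lrp1, a lactoferrin receptor, was at −0.45 (SE 0.38) and 0.10 (SE 0.38). The metalloproteinase inhibitor gene Timp2 was at −0.11 (SE 0.23) and 0.09 (SE 0.23), and Timp1 was at 0.45 (SE 0.30) and −0.14 (SE 0.29). An unadjusted p under 0.05 was held by 2 of the 6 in saline, where 1.58% of all genes passed, and by 1 for LPS in knockouts, where 7.61% did. DESeq2 gave 0 and 1 calls among the 6, and 1 and 515 over all genes. Pglyrp2, Pglyrp3 and Pglyrp4, the relatives of Pglyrp1, failed the filter, and they summed to at most 0.752 CPM in any microglia library.

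Sums of microglia and erythroid markers moved with the fall of Camp, Ngp and Ltf in knockouts, while those of the other cell types overlapped. The 10 microglia markers summed to 902.3 to 1461 CPM in LPS knockouts, against 1637 to 3833 CPM in saline knockouts. P2ry12, Gpr34, Siglech and P2ry13 were called lower by edgeR, 4 of 10 where 0.13% of all genes were. DESeq2 called 6 of the 10, and 515 genes in all. In controls the microglia markers summed to 997.3 to 1727 CPM after LPS, against 2208 to 3875 CPM in saline. There P2ry12, Gpr34 and P2ry13 were called lower by edgeR, 3 of 10 where 0.0495% of all genes were. DESeq2 called 4 of the 10, and 285 genes in all. Erythroid markers (8 genes, all detected) summed to 32.2 to 37.8 CPM in LPS knockouts, against 66.5 to 162.3 CPM in saline knockouts, and to 36.4 to 43.0 CPM in LPS controls, against 48.2 to 153.2 CPM in saline controls. In knockouts edgeR called Hbb-bs, a beta globin gene, lower at −3.86 (SE 0.72, adjusted p 0.0131), 1 of the 5 tested, and DESeq2 called 3. B lineage markers (8, all detected) summed to 14.4 to 20.2 CPM in LPS knockouts, against 10.2 to 36.5 CPM in saline knockouts, which overlap. All 6 tested B lineage genes had negative fold changes there, with a median of −0.90, and edgeR called 0 and DESeq2 1. Monocyte markers (10, all detected) summed to 225.3 to 443.6 CPM in LPS knockouts, against 243.1 to 283.7 CPM in saline knockouts. Of the 9 tested, 4 had positive and 5 negative fold changes, and edgeR called 0 and DESeq2 1. Neuronal markers summed to 1944 to 2280 CPM in LPS knockouts, against 2143 to 2227 CPM in saline knockouts, and astrocyte markers to 512.7 to 637.4 CPM, against 578.3 to 654.1 CPM. The erythroid and microglia sums were lower after LPS in controls as well, where Camp, Ngp and Ltf were not called. The part of these cells in the result was not tested.

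Over the 12 microglia libraries, log2 CPM of Camp and Ngp had a Pearson r of 0.96, Ngp and Ltf 0.94, and Camp and Ltf 0.88, given as a description because the libraries share groups and scaling. After group means were removed these were 0.83, 0.83 and 0.69. Mmp8 followed less closely, at 0.49 with Camp and −0.01 within groups, and Pglyrp1 had 0.49 with Camp and 0.78 within groups. Among 21445 other genes averaging at least 1 CPM, those most like the mean of the 5 were Fcnb (r 0.93), I830127L07Rik (0.90), Itgb2l (0.90), Ear6 (0.88) and Mpo (0.85), with 5 predicted genes in the first 10. Fcnb was at 1.25, 2.33 and 0.35 CPM in LPS knockouts, against 3.39, 2.83 and 2.26 CPM in LPS controls. It was at 5.21, 6.28 and 9.65 CPM in saline knockouts, against 4.49, 3.42 and 3.45 CPM in saline controls. All saline knockouts were above all saline controls, as for 2.53% of genes tested, while the LPS groups overlapped through LPS knockout 2. Fcnb was picked for its high r over these same libraries, so this likeness is no separate support. Fcnb and Mpo are in the list used here for primary granule genes.

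Camp, Ngp and Ltf share a stretch of 1195 kb on chromosome 9, with 570.1 kb between Camp and Ngp and 596.3 kb between Ngp and Ltf. The annotation lists 51 other genes there, of which 25 were tested in microglia. Their median difference in log2 CPM was −0.04 for LPS minus saline in knockouts, −0.20 for knockout minus control in LPS and −0.01 for knockout minus control in saline. The first spanned −1.25 to 0.25 and the last −0.40 to 0.64, and the second −1.35 to 0.26. The fitted fold changes of Camp, Ngp and Ltf given above lie outside the first and the last of these ranges and inside that for knockout minus control in LPS.

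Astrocyte libraries held almost none of these transcripts apart from Pglyrp1. Camp and Ltf had 0 counts in all 12 libraries, of 227062657 gene counts. Ngp had 44 counts in 6 libraries and Mmp8 35 counts in 5, with 1 count each in the saline libraries together. Only Pglyrp1 passed the filter, 1 of the 5. In saline controls, 5 of 5 genes were higher in microglia than in astrocytes by edgeR, fitted on all 24 libraries with adjusted p from 6.23e-10 for Ngp to 5.39e-05 for Pglyrp1, where 32.1% of 24607 genes were called higher. Against a floor of 3 counts over the astrocyte group, Camp was at least 273.5-fold higher in microglia, Ltf at least 364.6-fold and Mmp8 at least 112.2-fold. Ngp had 3223 counts in microglia and 1 in astrocytes, a ratio of 2378 with a 95% counting interval of 426.6 to 93970. For Pglyrp1 the fold change was 3.87 on the log2 scale (SE 0.70). Cell type goes together here with brain region, preparation and gene annotation, which cannot be told apart from it, and intervals and floors cover counting error only.

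Pglyrp1 rose with LPS in knockout astrocytes. It had 449, 251 and 49 counts in LPS knockout astrocytes, or 16.5, 13.5 and 2.50 CPM, against 2, 4 and 2 counts in saline knockouts, or 0.11, 0.20 and 0.14 CPM. The groups did not overlap, and the fold change was 6.12 on the log2 scale (SE 1.00, edgeR adjusted p 0.00602), where 1.56% of 18188 genes were called and DESeq2 called Pglyrp1 as well. The call was lost without any 1 of the saline knockout libraries, with adjusted p of 0.0590, 0.0533 and 0.0574 without libraries 1, 2 and 3. In controls it had 23, 63 and 4 counts after LPS, or 1.08, 4.61 and 0.33 CPM, against 4, 15 and 4 counts in saline, or 0.20, 0.68 and 0.22 CPM. These groups overlapped, and the fold change of 2.40 (SE 0.86) was not called at an adjusted p of 0.233, where 0.929% of genes were. With single libraries left out it ran from 0.96 without LPS control 2 to 3.21 without saline control 2. Without the LPS libraries numbered 3, chosen after the data were seen because they stood apart, it was 2.90 with an adjusted p of 0.0215, and the knockout response was 6.60 with an adjusted p of 8.60e-05.

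Between genotypes, LPS astrocytes had a Pglyrp1 difference of 2.44 (SE 0.79, unadjusted p 0.00676, edgeR adjusted p 1.00), with overlap of knockout 3 and the controls and 0.0055% of genes called. With no filter on low counts its adjusted p was 0.0414, and without both libraries numbered 3 the difference was 2.42 at an adjusted p of 1.00. With single libraries left out it ran from 1.95 without LPS control 3 to 3.87 without LPS control 2. In saline it was −1.29 (SE 1.02, adjusted p 1.00), with 2, 4 and 2 counts in knockouts against 4, 15 and 4 counts in controls, where 0.0055% of genes were called, and it was −0.47 without saline control 2. The genotype difference in the LPS response was 3.72 (SE 1.28, unadjusted p 0.00975, edgeR adjusted p 1.00), with 0% of genes called and a range of 2.91 to 5.16 with single libraries left out. The saline knockout effect in microglia minus that in astrocytes was 2.22 for Pglyrp1 (SE 1.09, adjusted p 0.891, interval −0.01 to 4.45), with 0% of genes called. DESeq2 called Pglyrp1 in none of these 4 comparisons.

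On a common scale for both cell types, pooled Pglyrp1 levels after LPS were 14.8 CPM in knockout microglia and 24.3 CPM in knockout astrocytes, a ratio of 0.608 (microglia over astrocytes) with a 95% counting interval of 0.544 to 0.678. In LPS controls they were 19.3 CPM in microglia and 4.03 CPM in astrocytes, and in saline controls 12.7 and 0.809 CPM. On this scale Pglyrp1 was the 1 member of the set with a higher pooled level in astrocytes than in microglia in any condition. That order rests on the scaling. TMM factors over all 24 libraries were 1.65 to 1.82 in LPS knockout microglia and 0.484 to 0.700 in LPS knockout astrocytes. Scaled within each cell type, Pglyrp1 was higher in every LPS knockout microglia library than in any LPS knockout astrocyte library. In the LPS astrocyte libraries, Ngp and S100a8 counts and the sums of mature neutrophil and microglia markers overlapped between the genotypes. Ngp had 3, 19 and 0 counts in LPS knockouts, against 6, 12 and 3 counts in LPS controls, and S100a8 had 39, 121 and 18 counts, against 49, 48 and 0 counts. Of the 14 mature markers, Ly6g and Padi4 had 0 counts in LPS knockouts, and Cxcr2 and Stfa2l1 had 0 counts in LPS controls. The 14 summed to 37.9 to 51.1 CPM in LPS knockouts, against 36.9 to 56.1 CPM in LPS controls, and most of that was Mxd1, which other cells also express, at 1839 and 1673 counts. Of the 6 mature markers tested in astrocytes, 4 had positive and 2 negative values for LPS knockout against control. They ran from S100a9 at 2.00 (SE 1.22) and S100a8 at 0.60 (SE 1.07) to Mxd1 at −0.31 and Fpr1 at −0.35, and none was called. The microglia markers summed to 83.3 to 212.8 CPM in LPS knockouts, against 79.2 to 200.8 CPM in LPS controls. Library 3 was lowest for Pglyrp1, S100a8 and Lcn2 in both LPS groups, and the part of neutrophils in the Pglyrp1 values was not tested.

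**Figure D5:**
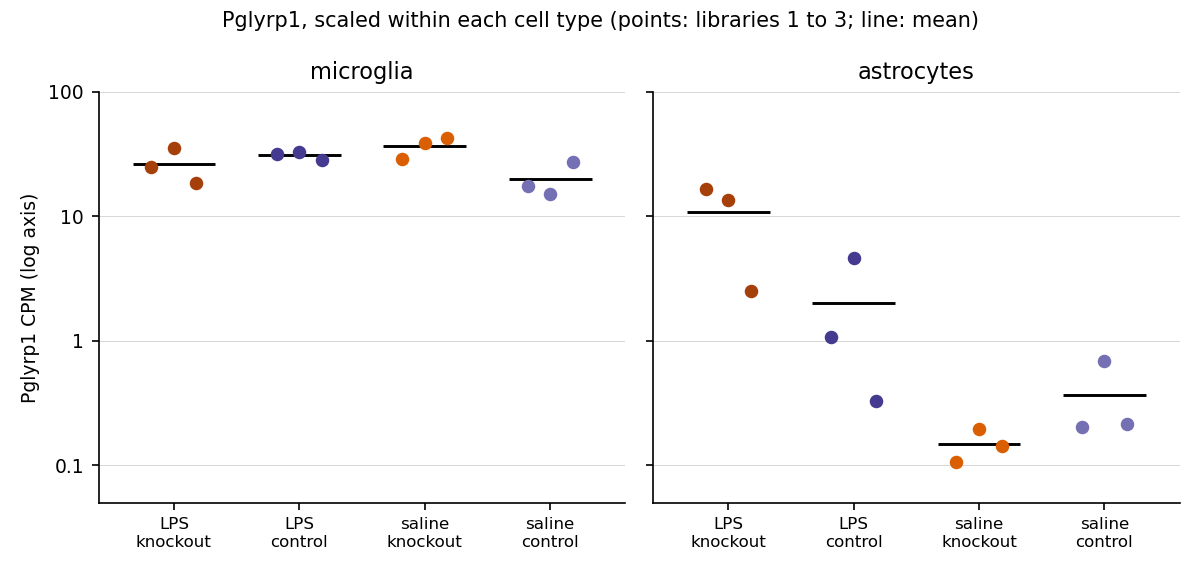
Pglyrp1 in CPM (log axis), scaled within each cell type, in each microglia and astrocyte library. Points are libraries 1 to 3 of a group and lines are means. In astrocytes the LPS knockout libraries lie between 2.50 and 16.5 CPM and the saline knockouts between 0.11 and 0.20 CPM.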

How the data were processed

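The authors deposited 1 table per library with read counts per Ensembl gene. All values were whole numbers and library totals differed, so the tables hold no scaling. Per the submitters' processing notes, STAR 2.6.0c served for alignment and HTSeq for counting. Those notes name GRCm38 and GRCm39 without saying which was used for which table, and the strand setting is not given in the sources used here. The 5 HTSeq summary rows (70.6% to 79.3% of reads in microglia, 40.0% to 45.7% in astrocytes) were left out. Counts were fitted per cell type with edgeR 4.0.16 in R 4.3.3, using filterByExpr (minimum count 10, total 15), TMM, robust glmQLFit with 1 mean per group, and two-sided glmQLFTest, with p-values adjusted over all genes tested (22230 in microglia, 18188 in astrocytes). Log2 CPM had a prior count of 2. The fit was tested on simulated data. Alternatives were DESeq2 1.42.0, RLE factors, no filter, a minimum count of 50, a sex covariate, a replicate block, fits limited to the compared groups, and leaving out libraries. Same-numbered libraries deviated together (every r over 0.1, from 0.157 to 0.354) only between LPS knockout and LPS control astrocytes. The members, lists and motifs were chosen with earlier results of these data known. From the granule, mature neutrophil, regulator and partner lists the text names genes called by edgeR and the 2 highest and 2 lowest fold changes in saline microglia, knockout against control, and in knockout microglia, LPS against saline. Mpo, Timp1, the mature markers named in astrocytes and the called microglia and erythroid markers, outside that rule in places, were named after their values were seen. Symbols were found for 52093 of 53700 microglia and 55141 of 55487 astrocyte identifiers.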

Additional observations from a re-analysis of the deposited data

Results flagged for a closer look

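Camp and Ngp had knockout effects of opposite direction in saline and in LPS microglia, with no overlap of knockout and control libraries in either injection. The difference between the genotypes' LPS responses was −2.54 on the log2 scale for Camp and −2.01 for Ngp. In edgeR neither passed after adjustment (adjusted p 1.00 for each), DESeq2 gave adjusted p of 0.00212 for Camp and 0.0931 for Ngp, and over all alternatives the edgeR and DESeq2 adjusted p ranged from 1.19e-08 to 1.00 for Camp and from 4.60e-06 to 1.00 for Ngp. The direction held under all 18 alternatives for both genes.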

How the results depend on the processing

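Of 501 refitted fold changes of single members, 474 kept their direction and their side of the threshold. Signs changed for uncalled values near 0. Ngp for LPS against saline in control microglia, −0.05 as reported, was 0.003 with no filter, 0.039 with a sex covariate and −0.084 to 0.044 with each library left out. Mmp8 there ran from −0.748 to 0.035 with each library left out, and for LPS knockout against control from −0.107 to 0.888. With no filter on low counts the members called were 3 in saline knockout against control microglia, 1 in LPS knockout against control, 3 for the genotype difference, and 1 each in astrocytes for LPS knockout against control and for LPS against saline in controls. DESeq2 gave 1 for the microglial genotype difference, where leaving out single libraries gave 0 to 1, as it did for LPS against saline in knockout astrocytes. Without both LPS astrocyte libraries numbered 3, an alternative chosen after seeing the data, there was 1 for LPS against saline in controls. The cause was not tested. Over all genes, LPS against saline in knockout microglia gave 254 calls, against 637 with no filter, 515 with DESeq2, 158 with a sex covariate and 112 to 215 with single libraries left out, and in control microglia 128, against 463 with no filter and 285 with DESeq2. In knockout astrocytes it gave 283 calls, against 1027 with no filter, 827 with DESeq2, 184 from the 2 groups alone, 912 without both libraries numbered 3 and 38 to 561 with single libraries left out. In control astrocytes it gave 169, against 804, 639, 349 and 734 in the same order, 295 with a sex covariate, 286 with the replicate block and 36 to 476 with single libraries left out. The lows of both came without saline libraries and the highs without LPS library 3. Saline knockout against control gave 0 in microglia, against 22 with no filter and 1 with DESeq2, and 1 in astrocytes, against 8 and 2. LPS knockout against control gave 0 in microglia, against 19 and 1, and 1 in astrocytes, against 26 with no filter. The genotype difference gave 0, against 7 and 1 in microglia and 13 with no filter in astrocytes, and the saline knockout effect in microglia minus astrocytes gave 0, against 76 and 1. With the replicate number as a block, Pglyrp1 in LPS astrocytes, knockout against control, was 2.75 (edgeR adjusted p 0.753), and the block changed no call of a member. With RLE factors the median of all genes for microglia against astrocytes in saline controls was 0.68, against 0.38 with TMM, and all 5 members were called with either. In astrocytes depth limits Camp and Ltf to the floors given, of 3 counts per group.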
